A study of Mus musculus with 384 samples.

Results

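Single cells that carried RNA of both Acta2 and Krt19 were described here among mammary cells sorted as hybrid cells after luminal cells had been ablated. A hybrid cell was called double-positive when Acta2 and Krt19 each reached 200 CPM, CPM being reads per 1000000 reads in genes. The cells were thus selected on measured levels of these genes. Of 92 hybrid wells, 85 passed the filters, and 61 of these 85 cells were double-positive. The other 24 hybrid cells comprised 19 with Acta2 alone past the threshold, 4 with Krt19 alone and 1 with neither. The whole series held 319 cells past the same filters.

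Cells were sorted from mouse mammary glands and sequenced one per well with Smart-seq2, a full-length method without molecular identifiers. All groups, including the groups labelled Wild-type, had the genotype K8rtta/TetO-DTA/K5CreER/Rosa-Tomato on a mixed background. Ablated hybrid, ablated luminal and ablated basal cells came from glands given 0.2 mg doxycycline by intraductal injection, at 1 week, and the labels name no doxycycline for the wild-type luminal and wild-type basal cells. In this genotype doxycycline turns on diphtheria toxin in cells that use the Krt8 promoter, and the Krt5-driven inducible Cre recombinase turns on Tomato, so that Tomato marks cells of Krt5 origin. Sorting used Tomato, CD29 and EpCAM and removed cells with CD140a, CD45 or CD31. The labels name no animal for any cell and do not say how the hybrid gate was drawn, so each sorted group counts as 1 sample, cells were not treated as replicates, and differences are given as sizes without a p-value.

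The mammary duct has an inner layer of luminal cells and an outer layer of basal, or myoepithelial, cells. Basal cells contract around the secretory unit during milk ejection, for which they use smooth muscle actin (Acta2), smooth muscle myosin and calponin, and they are filled with keratins such as Krt5 and Krt14. Luminal cells seal the lumen with tight junctions, carry the simple keratins Krt8, Krt18 and Krt19, and include hormone-sensing cells and cells that can become milk-secreting alveolar cells. After birth the layers are largely maintained by separate progenitors, and basal cells can give rise to luminal cells once luminal cells are lost.

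Acta2 (chr19:34241090-34255590, minus strand, GRCm38) encodes smooth muscle actin, and Krt19 (chr11:100140810-100148665, minus strand) encodes the smallest keratin. The window of 250 bases before the RefSeq start of Acta2 (chr19:34255374-34255623, GRCm38.p6) is shown because the gene defines the cells on the basal side. The Acta2 span given above has another start and reaches into this window. Distances below are counted from the RefSeq start. The matching window of Cldn4 (chr5:134946935-134947184, minus strand), which encodes a tight junction claudin, is shown because this luminal gene was among the highest in double-positive over both single-positive classes. Both read 5′ to 3′ in the direction of the gene, and capitals mark the motifs that were searched for.
Acta2: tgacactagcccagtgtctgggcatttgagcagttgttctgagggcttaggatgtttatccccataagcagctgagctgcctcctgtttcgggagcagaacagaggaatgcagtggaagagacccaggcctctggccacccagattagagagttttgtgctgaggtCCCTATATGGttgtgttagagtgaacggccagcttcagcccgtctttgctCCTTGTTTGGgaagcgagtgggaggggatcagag
Cldn4: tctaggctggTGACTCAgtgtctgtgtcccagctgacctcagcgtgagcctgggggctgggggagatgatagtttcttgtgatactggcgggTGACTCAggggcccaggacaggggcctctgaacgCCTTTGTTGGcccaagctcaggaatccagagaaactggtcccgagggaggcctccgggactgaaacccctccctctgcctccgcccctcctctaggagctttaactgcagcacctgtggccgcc
The motifs were the AP-1 site TGACTCA, with its other strand TGAGTCA, and a box like the CArG element bound by serum response factor in smooth muscle genes. The CArG-like box was taken as CC, 6 bases of which at least 5 are A or T, and GG, which reads the same way on both strands. The Acta2 window held CArG-like boxes that begin 84 and 34 bases before the start, and the Cldn4 window held AP-1 sites at 240 and 158 bases and a CArG-like box at 124 bases. A CArG-like box lay in 8.59% and an AP-1 site in 4.46% of all 32851 mouse windows of this length. Among Acta2 and the contractile genes matched to a window, 2 of 12 held a CArG-like box (Acta2 and Myl9) and 2 of 12 an AP-1 site (Cald1 and Mylk). A gene was counted when any of its windows held a match, whereas the shares of 8.59% and 4.46% are of windows. A match describes letters in the window and says nothing of binding.

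The share of cells positive for both genes was highest in the hybrid gate. It was 71.8% of hybrid cells, with an exact Clopper-Pearson 95% interval of 61% to 81%. It was 15.8% of ablated luminal cells (12 of 76, 8.43% to 26%) and 1.41% of ablated basal cells (1 of 71, 0.0357% to 7.60%). Among wild-type cells, 1 of 43 luminal and 1 of 44 basal cells met the same rule (2.33% and 2.27%). These intervals cover counting error only, because all cells of a group come from 1 sample with no animal named. The share of double-positive cells was 13 of 17, 16 of 24, 17 of 23 and 15 of 21 in the plate lines M, N, O and P that held the hybrid wells, so all 4 lines held mostly double-positive cells. Sorted groups followed one another along the plate. The hybrid cells shared line M with 4 ablated luminal cells and filled lines N, O and P alone, so group and plate position can hardly be told apart.

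**Figure D1:**
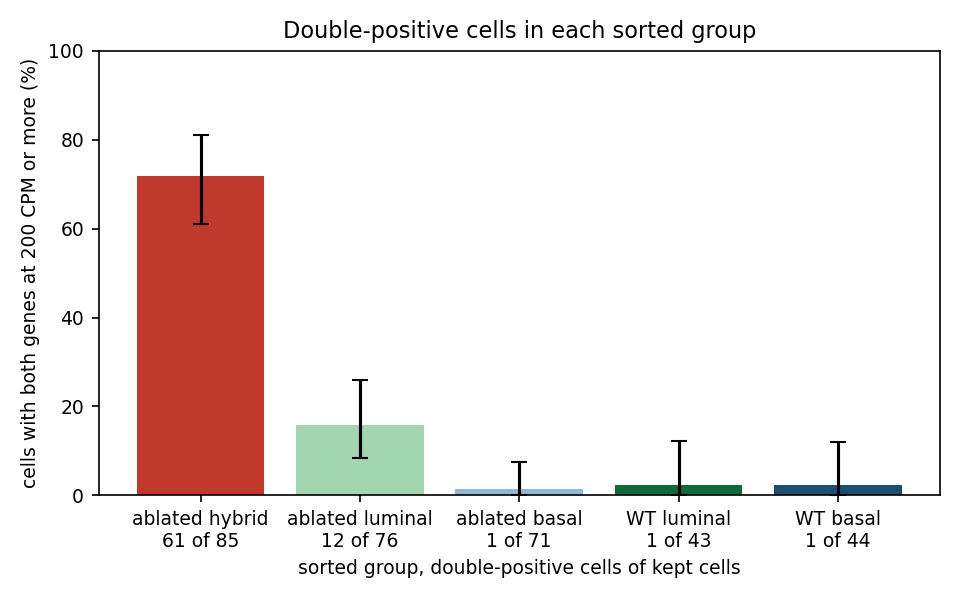
Share of cells with Acta2 and Krt19 both at 200 CPM or more (vertical axis, %) in each sorted group, with exact Clopper-Pearson 95% intervals as error bars that cover counting error only. The ablated hybrid group stands at 71.8%, the ablated luminal group at 15.8%, and the other groups at 2.33% or less.

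The cells were chosen by their levels of Acta2 and Krt19, so these levels are a description. Acta2 in double-positive cells had a lowest value of 206 CPM, a median of 5286 CPM and a highest value of 29035 CPM, against 1867, 11875 and 27388 CPM in Acta2-only hybrid cells. Krt19 ran over 206, 2296 and 13130 CPM in double-positive cells, against 768, 1525 and 5790 CPM in the 4 Krt19-only cells. Over the same order Krt19 was 13.8, 3756 and 18958 CPM in ablated luminal cells and 0, 7.03 and 261 CPM in ablated basal cells. The Acta2 values of double-positive cells lay within the spread of ablated basal cells (43.9, 12725 and 37363 CPM), and their Krt19 values lay within the spread of ablated luminal cells.

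Few cells sat close to the threshold. The double-positive cells nearest to it had 206, 293 and 353 CPM of Acta2 (110, 267 and 287 reads) and 206, 214 and 215 CPM of Krt19 (29, 231 and 132 reads). The hybrid cells just outside, each positive for the other gene, had 133, 82 and 58.8 CPM of Acta2 or 139, 124 and 101 CPM of Krt19. At under 400 CPM there were 3 double-positive cells for Acta2 and 4 for Krt19. The 5 negative control wells held 17 to 47 reads of Acta2 and 27 to 51 reads of Krt19, and 1 double-positive cell had no more Krt19 reads than the highest negative well. Raising the threshold to 400 CPM left 54 double-positive cells, lowering it to 100 CPM gave 65, and subtracting the mean negative-well reads left 56.

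**Figure D2:**
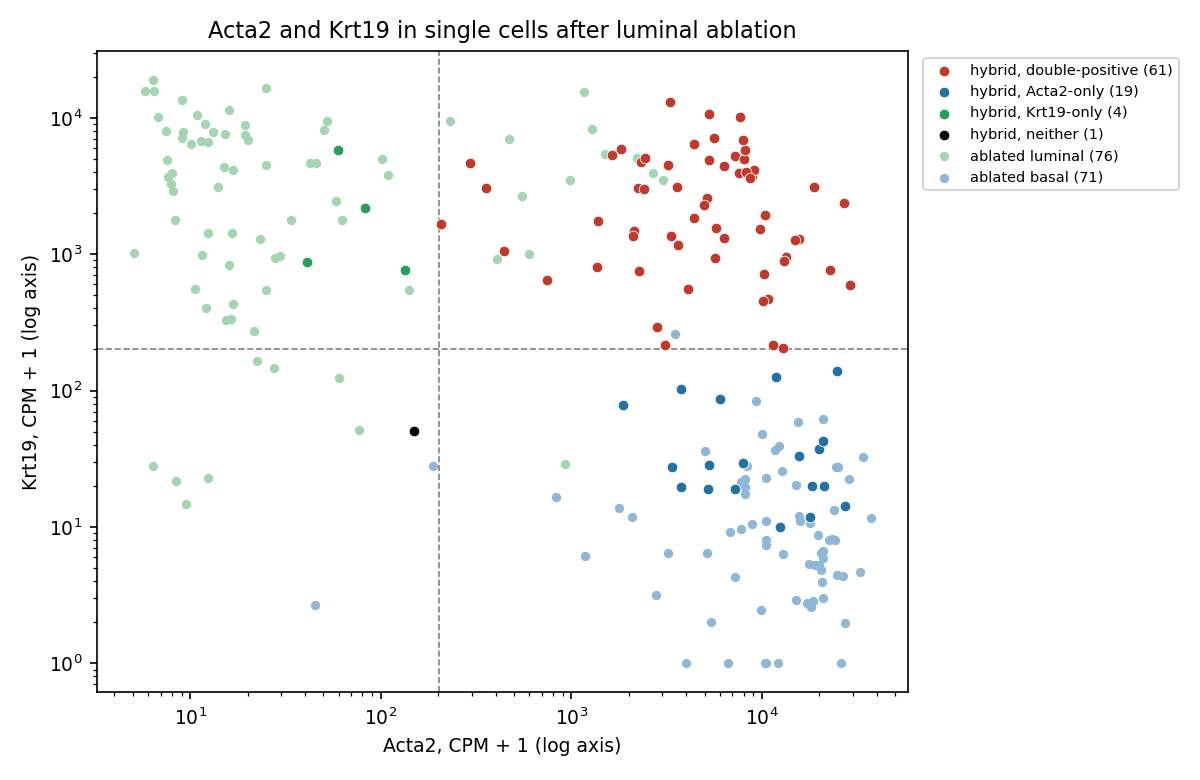
Acta2 (horizontal log axis, CPM + 1) and Krt19 (vertical log axis, CPM + 1) in each hybrid, ablated luminal and ablated basal cell, with dashed lines at the 200 CPM threshold. The 61 double-positive hybrid cells fill the upper right, the 19 Acta2-only hybrid cells lie with the ablated basal cells, and 12 ablated luminal cells share the upper right field at lower Acta2.

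The Spearman correlation of Acta2 and Krt19 over the 61 double-positive cells was -0.17, as a description of cells that were kept for having both, share a plate and differ in depth. Acta2 went with other contractile genes, at 0.71 for Cnn1 (calponin), 0.61 for Tagln (transgelin) and 0.43 for Myh11 (smooth muscle myosin heavy chain), and with the basal keratins at 0.49 for Krt5, 0.45 for Krt17 and 0.32 for Krt14. Krt19 went with some luminal genes, at 0.55 for Krt8, 0.52 for Krt7, 0.50 for Krt18 and 0.45 for Cldn4. Against the opposite marker the same genes ran from -0.29 (Krt18) to -0.18 (Cldn4) with Acta2 and from -0.27 (Krt5) to 0.17 (Cnn1) with Krt19. Reads per cell went with Acta2 at 0.30 and with Krt19 at 0.28.

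Double-positive wells were deeper and held more genes than the other hybrid wells, which touches every comparison that follows. They held 141054 to 2414194 reads in genes with a median of 1243443, against 118310 to 1769264 with a median of 892195 in other hybrid cells. With every cell thinned to 100000 reads the median number of genes with a read was 4760 in double-positive and 4101 in other hybrid cells, against 4330 in ablated luminal and 2702 in ablated basal cells. The highest thinned count was 6806 genes in double-positive and 7154 genes in ablated luminal cells. Wells that received more than 1 cell were not called, and their part in these results was not tested. Leaving out the tenth of hybrid cells with most genes gave 1684 genes higher and 1075 lower by 2-fold in double-positive cells, against 1676 and 990 with all cells.

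Across all genes lineage position was summarised by a basal and a luminal score, each the mean log2(CPM + 10) over genes that differed 4-fold or more between wild-type basal and wild-type luminal cells (153 basal and 290 luminal genes, Acta2 and Krt19 left out). The basal score was lower and the luminal score higher in double-positive than in other hybrid cells, by -0.70 and 0.96 between the medians. The basal score of double-positive cells had a lowest value of 4.87, a median of 6.32 and a highest value of 7.74, against 5.64, 7.33 and 7.95 in Acta2-only cells and 5.73, 6.83 and 8.05 in ablated basal cells. Their luminal score ran over 4.39, 5.6 and 6.56, against 3.98, 4.54 and 5.11 in Acta2-only cells and 4.25, 5.58 and 6.46 in ablated luminal cells. The medians of double-positive cells were thus 0.50 below ablated basal cells on the basal score and 0.02 above ablated luminal cells on the luminal score.

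On both scores together the double-positive cells lay outside the wild-type layers, as did most other cells from ablated glands. All 61 had a basal score above the highest wild-type luminal cell (4.48) and a luminal score above the highest wild-type basal cell (4.05). Both held for 21 of 24 other hybrid cells, for 68 of 76 ablated luminal cells and for 20 of 71 ablated basal cells. All 61 also lay above the highest ablated basal cell on the luminal score (4.35), and 15 of 61 lay above the highest ablated luminal cell on the basal score (6.53). Against Acta2-only cells, 51 of 61 lay above the highest luminal score and 11 of 61 below the lowest basal score. Within double-positive cells the scores had a Spearman correlation of -0.04 over 61 cells, and each went with read depth (0.38 for the basal and 0.42 for the luminal score). With every cell thinned to 100000 reads, an alternative chosen after seeing the data, the differences between double-positive and other hybrid cells were -0.74 and 0.96. The basal difference was -0.44 at a threshold of 400 CPM and -0.45 after subtraction of negative-well reads.

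**Figure D3:**
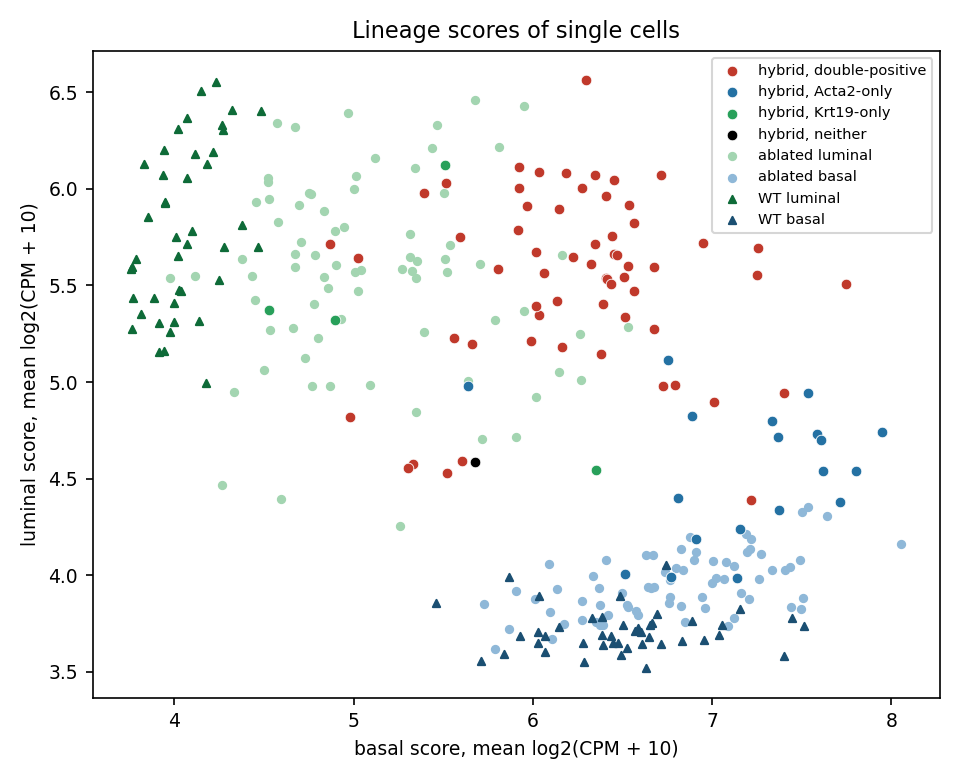
Basal score (horizontal axis) and luminal score (vertical axis) of each cell, in mean log2(CPM + 10). Double-positive hybrid cells (red) had median scores of 6.32 and 5.6, Acta2-only hybrid cells 7.33 and 4.54, and wild-type cells (triangles) lie in the opposite corners.

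Reads were next summed over the cells of a class, and a gene was counted as higher or lower when its log2((CPM + 10) ratio) reached 1 or -1, a 2-fold difference. Of 10852 genes measured at a mean of 5 CPM, 1676 (15.4%) were higher and 990 (9.12%) lower in double-positive than in other hybrid cells, with an all-gene median log2 ratio of 0.09. Since the rule used this contrast, and 19 of the 24 other cells were Acta2-only, these shares are the background for the lists and no result about them. With each gene's top cell in each class left out, the count of lower genes was 347 and the count of higher genes was 2403. This setting removes 1 of 61 double-positive but 1 of 24 other hybrid cells. For genes carried by few cells it can thus raise the ratio by itself, which limits the ratios given for it below. Against Acta2-only cells alone, 2022 of 10774 genes (18.8%) were higher and 1156 (10.7%) lower.

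The keratins separated the classes in opposite directions. All 3 basal keratins were lower and all 3 simple keratins higher by 2-fold or more in double-positive than in other hybrid cells, with median log2 ratios of -1.51 and 1.29. Krt14 had a lowest value of 17.7, a median of 1923 and a highest value of 10609 CPM in double-positive cells, against 25.9, 3191 and 17519 CPM in other hybrid cells, a log2 ratio of -1.26. Krt5, the partner of Krt14 in basal filaments, was at 0, 149 and 1420 CPM in double-positive and 1.90, 825 and 3279 CPM in other hybrid cells (-1.72), and Krt17 stood at -1.51. The groups overlapped for each of these genes.

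Among the simple keratins, Krt18 was at 221, 4297 and 12439 CPM in double-positive cells, against 39, 579 and 10170 CPM in other hybrid cells, a log2 ratio of 1.58. Krt8 stood at 169, 1964 and 8866 CPM against 6.68, 604 and 3682 CPM (1.29). Krt7, a keratin of simple ducts, stood at a log2 ratio of 1.16 over all other hybrid cells and 4.95 over Acta2-only cells, where 1 of 19 cells detected it against 37 of 61 double-positive cells. Without its top cell in each class the Krt7 ratio was 3.83, and 21 double-positive cells had no more Krt7 reads than the highest negative well. Krt15, a keratin of basal progenitors, was lower in double-positive than in other hybrid cells (429 and 1811 CPM over the summed reads, log2 ratio -2.05). Against ablated basal cells 0 of 2 measured wound and progenitor keratins, Krt15 among them, passed 2-fold (-0.47 and 0.66).

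**Figure D4:**
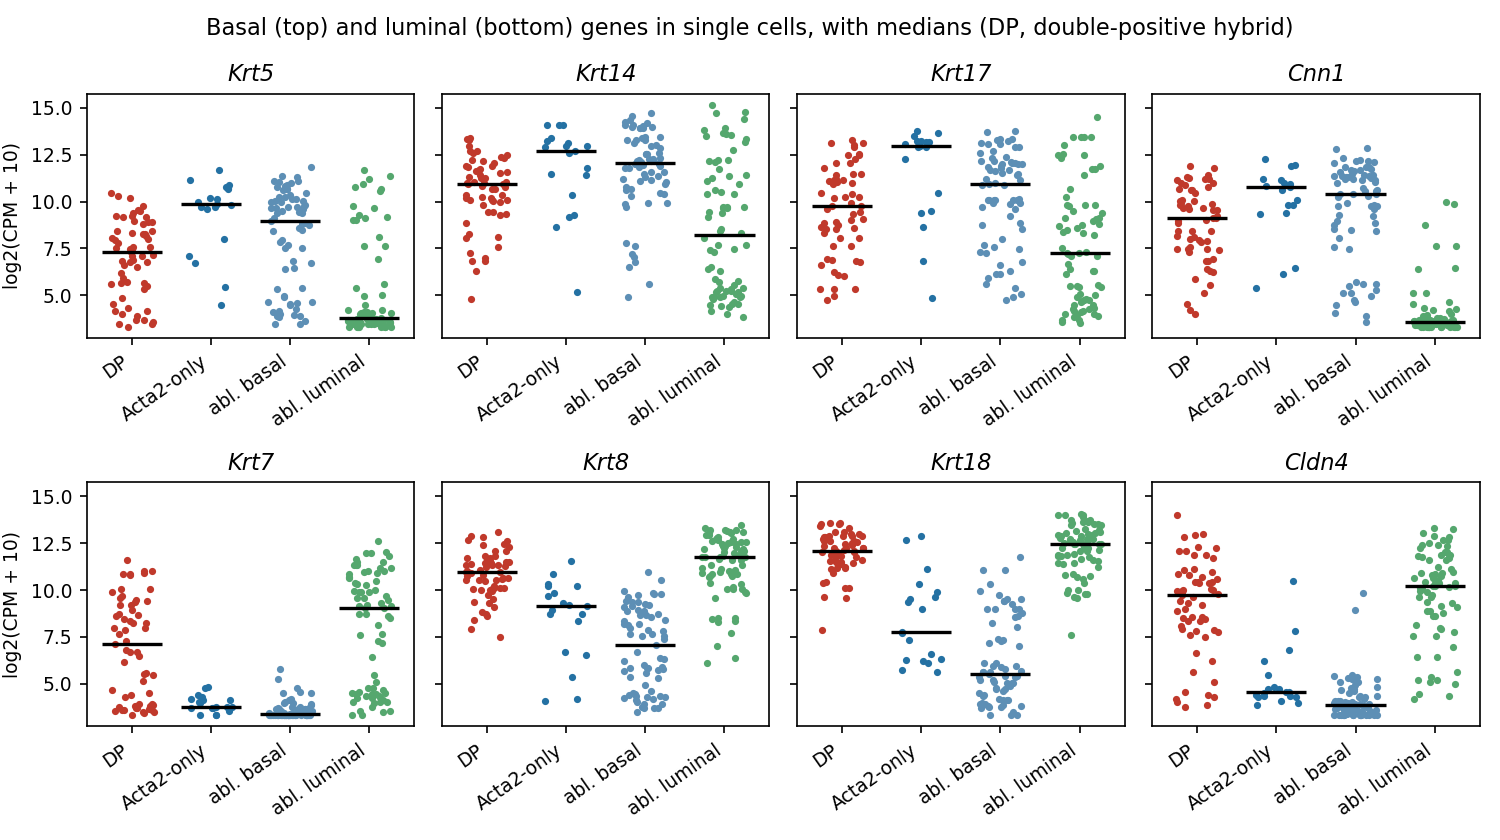
Levels (log2(CPM + 10), vertical axes) of the basal genes Krt5, Krt14, Krt17 and Cnn1 and the luminal genes Krt7, Krt8, Krt18 and Cldn4, with each point a cell and black lines at the medians. Double-positive hybrid cells (DP) lie below Acta2-only and ablated basal cells for the basal keratins and above Acta2-only and ablated basal cells for Krt7, Krt8, Krt18 and Cldn4.

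Of 13 contractile genes measured, 0 were higher and 3 lower by 2-fold in double-positive than in other hybrid cells (Tpm2, Cald1 and Oxtr), with a median of -0.66. Myh11 stood at 1.86, 245 and 1491 CPM in double-positive cells and at 1.59, 173 and 1553 CPM in other hybrid cells, a log2 ratio of 0.03. Cnn1 stood at 5.81, 544 and 3869 CPM against 8.36, 987 and 4882 CPM, a log2 ratio of -0.65. Oxtr, the oxytocin receptor that triggers contraction, had the largest difference of the list, with 22 of 61 double-positive and 12 of 24 other hybrid cells detecting it (log2 ratio -1.29). Detection here and below means at least 5 reads after thinning a cell to 100000 reads.

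Against ablated luminal cells 10 of 13 were higher by 2-fold and 0 lower, with a median log2 ratio of 2.49, on a background of 666 of 11010 genes higher (6.05%) and 549 lower (4.99%). Against ablated basal cells 10 of 14 were lower and 0 higher, with a median of -1.19, on a background of 1958 of 10958 genes higher (17.9%) and 1223 lower (11.2%). The Acta2 rule bears on these comparisons too, since it selects cells with one contractile gene. Actg2, the enteric smooth muscle actin, was level with ablated basal cells (0.02) and stood at 4.54 over ablated luminal cells.

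Laminins and hemidesmosomes attach basal cells to the basement membrane. Of 13 laminin and hemidesmosome genes 4 were lower and 0 higher than in other hybrid cells, with a median of -0.84. Col17a1, a collagen of hemidesmosomes, was detected in 34 of 61 double-positive and 17 of 24 other hybrid cells (171 and 623 CPM, log2 ratio -1.81). Itgb4, the integrin of hemidesmosomes, stood at -1.51 and Lamb1, a laminin chain, at -1.41. Against ablated luminal cells 5 of 13 of these genes were higher and 0 lower, with a median of 0.38.

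Junction genes of the luminal layer were higher. Of 14 measured, 8 were higher and 0 lower than in other hybrid cells, with a median of 1.14, and 10 were higher against Acta2-only cells, with a median of 2.27. Cldn4 stood at 3.31, 834 and 16186 CPM in double-positive cells, against 4.26, 13.4 and 1432 CPM in other hybrid cells. It was detected in 52 of 61 double-positive and 5 of 24 other hybrid cells, a log2 ratio of 3.95, or 5.40 without its top cell in each class. Double-positive and other hybrid cells overlapped, and 9 double-positive cells had no more Cldn4 reads than the highest negative well. Cldn3 was detected in 56 of 61 and 7 of 24 cells (log2 ratio 2.52), and Cldn7 in 55 of 61 and 6 of 24 cells (1.24, or 4.91 over Acta2-only cells). Against ablated luminal cells 0 of the 14 junction genes passed 2-fold, with a median of -0.36.

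Tight junction genes were among the genes highest over both single-positive classes. Against Krt19-only cells, 4718 of 10110 genes (46.7%) were higher by 2-fold or more, with an all-gene median log2 ratio of 0.85. Being higher over that class was thus common among all genes. Tjp3, which anchors claudins to the cytoskeleton, was detected in 16 of 61 double-positive cells and in 0 of 24 other hybrid cells (upper limit 12.5%). Marveld2, the tricellulin of contacts where several cells meet, was detected in 18 of 61 and 0 of 24 cells. Their summed levels were 65.7 and 63.3 CPM in double-positive cells, against 0.965 and 0.627 CPM in other hybrid cells. The log2 ratios were 2.79 for Tjp3 and 2.79 for Marveld2, sizes that the added 10 CPM sets in part. With 1 CPM added they were 5.09 and 5.30, and at a threshold of 400 CPM 1.89 and 1.92. Against ablated luminal cells Tjp3 stood at 0.08 and Marveld2 at -0.37.

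Transcription factors of both layers differed in part. Of 10 basal factors 3 were lower and 0 higher than in other hybrid cells (Snai2, Egr2 and Id4, median -0.77), and of 12 luminal factors 5 were higher and 0 lower (Elf3, Elf5, Ehf, Grhl2 and Ovol1, median 0.85). Snai2, or Slug, which marks basal and mesenchymal cells, stood at 0, 0.536 and 313 CPM in double-positive cells, against 0, 24.5 and 1433 CPM in other hybrid cells, a log2 ratio of -2.69. It was detected in 8 of 61 double-positive and 11 of 24 other hybrid cells. Trp63, the master factor of basal epithelium, was detected in 18 of 61 and 11 of 24 cells (-0.83).

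Ehf, an epithelium-specific ETS factor, stood at 0, 145 and 1945 CPM in double-positive and 0, 2.02 and 422 CPM in other hybrid cells, a log2 ratio of 2.71. Elf5, which directs alveolar development, was detected in 17 of 61 and 2 of 24 cells (1.15, or 2.03 without its top cell in each class). Grhl2, a factor that maintains epithelial junctions, was detected in 13 of 61 and 0 of 24 cells (2.22). Gata3 and Sox9 stood at -0.41 and -0.45. At a threshold of 400 CPM the median of the luminal factors was 0.14.

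The combinations of genes in one cell were compared at equal depth. Cnn1 and Cldn4 were detected together in 46 of 61 double-positive cells (75.4%, 62.7% to 85.5%) and in 4 of 19 Acta2-only cells. The pair was found in 7 of 76 ablated luminal and 3 of 71 ablated basal cells, and in 0 of 43 wild-type luminal and 0 of 44 wild-type basal cells (upper limits 6.98% and 6.82%). Tagln and Cldn7 were detected together in 32 of 61 double-positive, 1 of 19 Acta2-only, 3 of 76 ablated luminal and 0 of 71 ablated basal cells. Neither pair contains a gene of the rule, though both follow the lineages the rule selects.

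Krt17 and Krt7 were detected together in 32 of 61 double-positive and 1 of 19 Acta2-only cells, but also in 24 of 76 ablated luminal cells. Krt14 and Krt18 were detected together in 59 of 61 double-positive, 18 of 19 Acta2-only, 49 of 76 ablated luminal and 29 of 71 ablated basal cells. Negative wells held 64 to 122 reads of Krt18 and 12 to 22 of Krt14 among 7930 to 13572 reads in genes. No more reads than in the highest negative well were found for Krt18 in 1 and for Krt14 in 0 of 61 double-positive cells. This count was not made for Acta2-only cells. The lowest double-positive cell had 221 CPM of Krt18, against 39 CPM in the lowest Acta2-only cell. Trp63 and Elf3, factors of opposite layers, were detected together in 10 of 61 double-positive and 2 of 19 Acta2-only cells.

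By a rule of size and detection, 12 genes were named as highest in double-positive over other hybrid cells. They were Fcgbp, Cldn4, Calca, Kit, Psat1, Ckmt1, Pnpla2, Zbtb43, Muc4, Ceacam1, Slc28a3 and Cldn1, with log2 ratios of 2.83 to 4.33. Fcgbp, a mucus protein, stood at 0, 47.1 and 4318 CPM in double-positive cells, against 0, 2.86 and 525 CPM in other hybrid cells, and was detected in 31 of 61 and 2 of 24 cells. Kit, the receptor tyrosine kinase of luminal progenitors, stood at 0, 63.2 and 1243 CPM against 0, 1.40 and 101 CPM, and was detected in 33 of 61 and 1 of 24 cells (3.44). Both were level with ablated luminal cells, at 0.10 for Fcgbp and 0.07 for Kit, and were detected in 0 of 71 ablated basal cells. No more reads than in the highest negative well were found for Fcgbp in 27 and for Kit in 20 of the 61 double-positive cells.

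Several of these genes encode enzymes and transporters. Psat1, which makes phosphoserine, was detected in 21 of 61 double-positive and 0 of 24 other hybrid cells (107 and 1.25 CPM, log2 ratio 3.37), and it stood at -0.30 against ablated basal cells. Pnpla2, the lipase that starts breakdown of stored fat, was detected in 44 of 61 and 4 of 24 cells (314 and 32.7 CPM, 2.92). Ckmt1, a mitochondrial creatine kinase, and Slc28a3, a nucleoside transporter, were detected in 22 and 27 of 61 double-positive cells and in 1 and 2 of 24 other hybrid cells. Pnpla2 stood at 1.91 over ablated basal and 0.98 over ablated luminal cells.

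Zbtb43, a zinc finger protein, was detected in 21 of 61 and 0 of 24 cells (71.7 and 0.772 CPM). The other genes of the list encode surface and secreted products and a claudin. Ceacam1, a cell adhesion molecule, was detected in 41 of 61 and 2 of 24 cells (215 and 20.1 CPM), and Muc4, a membrane mucin, in 16 of 61 and 0 of 24 cells. Calca, which encodes calcitonin and its related peptide, was detected in 16 of 61 double-positive and 1 of 24 other hybrid cells, with 541 and 39.8 CPM over the summed reads and a highest cell of 6609 CPM. It stood at 2.78 over ablated luminal and 5.75 over ablated basal cells. Without the top cell of the gene in each class the ratios of Calca and Ceacam1 were 5.04 and 3.90. At a threshold of 400 CPM those of Fcgbp, Cldn4, Calca, Psat1 and Slc28a3 were 3.68, 2.74, 2.36, 2.15 and 1.43.

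The 12 genes lowest in double-positive cells were Vangl2, Scube3, Snai2, Celsr1, Hmcn1, Col6a1, Igfbp7, Sfrp1, Vim, Slpi, Nexn and Adamts1, with log2 ratios of -3.10 to -2.29. Vangl2 and Celsr1 are core genes of planar cell polarity. Vangl2 was detected in 2 of 61 double-positive and 6 of 24 other hybrid cells (5.04 and 119 CPM, -3.10). Without its top cell in each class the ratio of Vangl2 was -2.38. Celsr1 was detected in 3 of 61 and 9 of 24 cells (9.59 and 106 CPM, -2.56). These genes were sparse even where they were highest, and the classes overlapped at 0.

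Igfbp7 and Vim were the more widely detected genes of this side. Igfbp7, a secreted protein that binds growth factors, stood at 1.87, 170 and 1681 CPM in double-positive cells, against 42.3, 973 and 5374 CPM in other hybrid cells (-2.38). Vim, the filament protein vimentin, stood at 0, 16.6 and 1505 CPM against 1.59, 520 and 2014 CPM (-2.36). Col6a1 and Hmcn1, both matrix genes, were detected in 4 of 61 double-positive cells each, against 9 and 10 of 24 other hybrid cells. Nexn, an actin-binding protein of muscle, was detected in 7 of 61 and 12 of 24 cells and stood at -2.55 against ablated basal cells. Slpi, a secreted protease inhibitor, had 1 other hybrid cell at 37902 CPM. Its ratio of -2.31 was -1.68 without its top cell in each class and -0.85 at a threshold of 100 CPM.

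Mesenchymal genes were not higher. Of 7 measured, 4 were lower and 0 higher than in other hybrid cells (Vim, Fn1, Snai2 and Timp1, median -1.16), and Zeb1, Twist1 and other factors of this list did not reach the level needed to be measured. Sparc, a matrix protein of basal cells, was detected in all 61 double-positive and all 24 other hybrid cells (2610 and 5210 CPM, -0.99). Timp1 and Fn1 rested on few cells, and without the top cell of the gene in each class they stood at -1.03 and -0.24.

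Of 13 milk and secretory genes 7 were higher and 0 lower than in other hybrid cells (Csn2, Plin2, Trf, Ltf, Cd14, Aldh1a3 and Kit), with a median of 1.11 that was -0.03 at a threshold of 400 CPM. Cd14, a receptor for bacterial lipid found on luminal progenitors, stood at 3.14, 988 and 8880 CPM in double-positive cells, against 3.87, 17.3 and 3645 CPM in other hybrid cells. Its log2 ratio was 2.50, or 3.56 without its top cell in each class. Cd14 stood at 7.10 over ablated basal and 1.76 over ablated luminal cells. Cd14 was detected in 52 of 61 double-positive and 45 of 76 ablated luminal cells.

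The caseins were carried by a few cells. Csn2, or beta-casein, had a median of 10.6 CPM and a highest cell of 101262 CPM in double-positive cells, against a median of 12.7 and a highest cell of 24148 CPM in other hybrid cells. Its log2 ratio was 2.64, and it was -2.57 at a threshold of 400 CPM. Csn3, or kappa-casein, stood at -0.60 over other hybrid cells and 2.84 over Acta2-only cells. Without its top cell in each class the ratio over other hybrid cells was 0.23. Negative wells held 43 to 341 Csn3 reads, and 30 of 61 double-positive cells had no more than that. Ltf, or lactoferrin, had a median of 4.56 and a highest cell of 11539 CPM in double-positive cells. The values in other hybrid cells were 1.67 and 46.5 CPM. The log2 ratio of Ltf was 4.83, or 4.20 without its top cell in each class.

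Of 8 hormone-sensing genes 4 were higher and 0 lower than in other hybrid cells (Areg, Tph1, Cited1 and Wnt4, median 1.02). With Foxa1 and S100a6 added to the list, the median log2 ratio was 0.64 over 10 measured genes. The summed level of those 12 markers per cell had a median of 348 CPM in double-positive and 698 CPM in other hybrid cells. Areg, the growth factor that carries the oestrogen signal to neighbouring cells, was detected in 19 of 61 double-positive and 6 of 24 other hybrid cells (567 and 71.4 CPM, 2.82, or 1.27 at a threshold of 400 CPM). Prlr, the prolactin receptor, was detected in 29 of 61 and 2 of 24 cells (0.49, or 3.68 without its top cell in each class). Cited1 was detected in 20 of 61 and 1 of 24 cells (1.28, or 4.67 without its top cell in each class). Esr1, the oestrogen receptor, stood at 0.04, and at -0.92 after subtraction of negative-well reads and -0.80 at a threshold of 400 CPM. Tph1 was detected in 2 double-positive cells, with 50.9 CPM over the summed reads.

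Wnt genes leaned the other way. Of 15 measured, 8 were lower and 1 higher than in other hybrid cells, with a median of -1.21. The lower genes included the R-spondin receptors Lgr4, Lgr5 and Lgr6, the Wnt receptors Fzd1 and Lrp6, the inhibitors Sfrp1 and Nkd1 and the factor Tcf7. Lgr5 stood at 0, 1.40 and 831 CPM in double-positive cells, against 0, 38.4 and 4480 CPM in other hybrid cells, and was detected in 11 of 61 and 12 of 24 cells (-2.17). Lgr4 was detected in 34 of 61 and 19 of 24 cells (-1.49). The higher gene was Znrf3, a ligase that removes Wnt receptors (89 and 31.6 CPM, 1.25). Axin2, a common target of Wnt signalling, was below the measured level at 2.09 and 1.59 CPM. Without a filter on low values the median of the list was -0.66. Against ablated luminal cells 5 of 15 Wnt genes were higher and 0 lower, with a median of 0.25. Against ablated basal cells 7 of 16 were lower and 1 higher, with a median of -0.95.

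Ligands and receptors of the EGFR family divided. Of 10 measured, 5 were higher (Erbb2, Erbb3, Areg, Epgn and Btc) and 3 lower (Egfr, Ereg and Hbegf) than in other hybrid cells. The receptor Egfr was at 55.5 and 164 CPM over summed reads (-1.41), whereas its partner Erbb3 was at 105 and 34.7 CPM and detected in 29 of 61 and 3 of 24 cells (1.37). Erbb2 was detected in 11 of 61 and 2 of 24 cells (1.71). Epgn rested on 6 double-positive cells, at 3.01, or 1.96 without its top cell in each class, and Ereg was detected in 0 of 61 double-positive and 3 of 24 other hybrid cells.

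Cell cycle genes were higher on balance, at low detection. Of 17 measured 10 were higher and 0 lower than in other hybrid cells, with a median of 1.17. Mki67, a marker of cycling cells, was detected in 9 of 61 double-positive and 2 of 24 other hybrid cells (53.2 and 6.95 CPM, 1.90), and Ccnb2, a mitotic cyclin, in 13 of 61 and 2 of 24 cells (2.37). Top2a was detected in 6 of 61 and 4 of 24 cells (0.07, or -0.54 with every cell thinned to 100000 reads). The median of the list was 0.59 at a threshold of 400 CPM, 0.49 after subtraction of negative-well reads and 0.49 without the tenth of hybrid cells with most genes. Against ablated basal cells 15 of 17 were higher, with a median of 1.5, and against ablated luminal cells the median was -0.15.

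Signalling lists near the background included Notch (1 higher and 1 lower of 9, median 0.36), p53 (1 and 1 of 10, 0.18), YAP and TAZ targets (1 and 1 of 9, 0.36), cadherins and desmosome (1 and 2 of 11, 0.08) and immediate early genes (0 and 0 of 12, -0.22). With every cell thinned to 100000 reads the medians were -0.11 for p53, -0.11 for YAP and TAZ targets and -0.30 for cadherins and desmosome, and the last was -0.02 under either other scaling. Of 10 interferon genes 5 were higher and 0 lower (median 0.80), among them Ifi44 at 2.38 and Gbp2 at 1.25. Of 12 TNF and NF-kB genes 4 were higher and 0 lower (median 0.22), with Birc3, an inhibitor of cell death, detected in 27 of 61 and 2 of 24 cells (2.62) and Tnf in 12 of 61 and 1 of 24 cells (2.96).

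**Figure D5:**
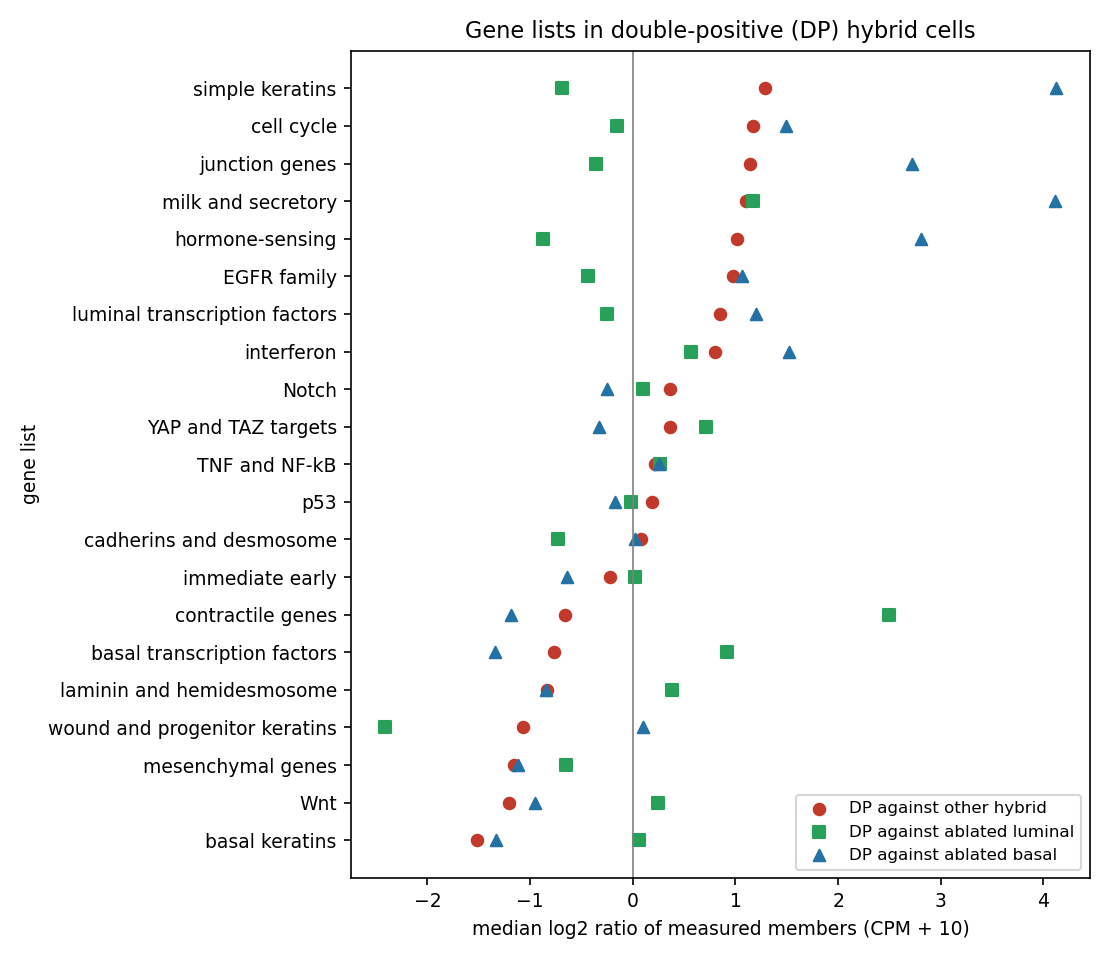
Median log2 ratio (horizontal axis, after adding 10 CPM) of the measured members of each gene list (vertical axis) in double-positive hybrid cells against other hybrid (red circles), ablated luminal (green squares) and ablated basal cells (blue triangles). Contractile genes stand at -0.66, 2.49 and -1.19 and junction genes at 1.14, -0.36 and 2.72 in these 3 comparisons.

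Summed markers of cell types outside the epithelium had medians mostly near 0 CPM. The summed level of 10 immune markers had a median of 0.759 CPM in double-positive and 0 CPM in other hybrid cells, with highest cells of 1000 and 359 CPM, and C1qa was at 0 in both classes. Of 4 immune markers measured, Lyz2 (1.22) and Cd68 (1.20) were higher and Cd79a (-1.71) lower by 2-fold in double-positive cells. The 6 endothelial markers had a median of 0 in both classes, with Cdh5 and Emcn at 0 in both. Their highest cells were 113 CPM in double-positive and 1.07 CPM in other hybrid cells. Pecam1 was detected in 2 of 61 double-positive and 0 of 24 other hybrid cells. The 6 pericyte markers had a median of 7.78 and a highest cell of 433 CPM in double-positive cells. In other hybrid cells these were 0 and 25.4 CPM. Both pericyte members measured, Pdgfrb (1.07) and Notch3 (1.16), were higher by 2-fold in double-positive cells. Fibroblast markers stood higher, at 0 to 2247 CPM (median 442) in double-positive and 0 to 3952 CPM (median 56.2) in other hybrid cells. Dcn (decorin) made up most of this and was detected in 46 of 61 double-positive, 9 of 24 other hybrid and 36 of 71 ablated basal cells, while Lum was at 0 in both hybrid classes. Of the 5 fibroblast markers measured, Pdgfra (1.27) and Pdgfrb (1.07) were higher by 2-fold in double-positive than in other hybrid cells. Col1a2 (-1.92) was lower by 2-fold, and Dcn stood at 0.91. Pdgfrb was detected in 4 of 61 double-positive cells and was at 0 in all 24 other hybrid cells. Pdgfra encodes CD140a, which the sort was set to remove, and it was detected in 5 of 61 double-positive and 1 of 24 other hybrid cells. The part of fibroblast, pericyte or endothelial RNA in the results was not tested.

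One Acta2-only cell held 145002 CPM of the 3 haemoglobin-pathway markers, against a highest double-positive cell of 309 CPM. Hbb-bs, Hba-a1 and Alas2 had log2 ratios of -7.71, -6.45 and -3.06 in double-positive over other hybrid cells. Without it, an alternative chosen after seeing the data, 1702 genes were higher and 1002 lower in double-positive cells. The 1 B cell marker seen, Cd79a, came from 1 Krt19-only cell.

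The same rule found 12 double-positive cells in the ablated luminal gate, described here beside the hybrid cells. These cells had Acta2 of 229, 1075 and 3039 CPM, lower than the median of 5286 CPM in hybrid double-positive cells, and Krt19 of 927, 4486 and 15461 CPM. Against the other 64 ablated luminal cells, 1010 of 10547 genes (9.58%) were higher and 1814 (17.2%) lower, with an all-gene median of -0.10. Of 12 contractile genes 6 were higher and 1 lower there, with a median of 0.89, where the hybrid contrast had 0 of 13 higher and a median of -0.66. The higher genes included Cnn1 at 3.62 and Myh11 at 2.38. The basal keratins did not follow, at -1.79 for Krt5, -1.90 for Krt14 and 0.21 for Krt17.

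Genes named in hybrid cells were mixed in this second set. Of the 12 genes highest in hybrid double-positive cells, 6 were above 0 in luminal double-positive cells, 1 of them by 2-fold (Calca, 1.52), and 2 were lower by 2-fold (Cldn1 at -1.81 and Zbtb43 at -1.01). Of the 12 lowest, 8 were below 0, with 4 lower by 2-fold (Vangl2, Vim, Slpi and Adamts1) and 1 higher (Sfrp1 at 1.04). In this gate 55 of the 64 other cells were Krt19-only, so the contrast is one of Acta2, whereas in hybrid cells it is mostly one of Krt19. Their median luminal scores were 5.85 in double-positive and 5.58 in other ablated luminal cells, and their basal scores 5.39 and 4.92.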

How the data were processed

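Values were whole-number read counts for each gene in each well, as deposited by the authors without scaling. Per the submitters' processing notes the tools were Seurat, HTSeq 0.6.0, STAR 2.5.2b and cutadapt 1.13, with the build GRCm38 and no roles stated. No source used here gives their annotation version. Symbols were matched for 49326 of 49585 genes (GENCODE M21), and 92 spike-ins with 11 reads were not used.

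Wells were kept with at least 100000 reads in genes, 1000 genes and at most 20% mitochondrial reads, which left out 7 hybrid wells, 5 of them for low reads. Kept cells held 118310 to 3835005 reads. No caller of wells with several cells was run. Reads summed over a class were scaled to CPM. Genes were measured at a mean of 5 CPM over both classes. Pseudocount was 10 CPM, which limits the ratios of genes near 0 in one class. Detection used cells thinned to 100000 reads (fixed seed). Intervals are exact Clopper-Pearson 95%.

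The members, gene lists and rules were chosen with earlier results of these data known. Genes were named as the 12 largest and 12 smallest log2 ratios among official symbols, without ribosomal, mitochondrial and rule genes. They needed at least 50 CPM and 25% of cells in the higher class and a share at least 20 points above the lower. Up to 8 genes highest over both single-positive classes and up to 4 of each of 33 lists were added. Other keratins, pair genes and list members were named after their values were seen. Scaling factors came from edgeR 4.0.16 (TMM) and DESeq2 1.42.0 (median of ratios) in R 4.3.3. No test was run, since each group is 1 sample. Steps ran in Python 3.11.15 and were tested on simulated data. Promoter windows are RefSeq sequences on GRCm38.p6. Some members of the gene lists are counted but not reported here by name.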

Additional observations from a re-analysis of the deposited data

Results flagged for a closer look

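Libraries of many cells were not used in the comparisons above. The ablated hybrid library of many cells held 16711 Acta2 reads (6752 CPM) and 4671 Krt19 reads (1887 CPM), where negative control wells held 17 to 47 and 27 to 51 reads. It was the 1 library of the 5 with both genes at or above 200 CPM. The ablated basal library of many cells had 19454 CPM of Acta2 and 16.7 CPM of Krt19, and the ablated luminal one 21.4 and 4758 CPM. A library of many cells cannot show whether both genes were in the same cells.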

How the results depend on the processing

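The number of double-positive cells was 54 to 65 over the thresholds, filters and background corrections tried, against 61, and the count of higher genes was 1310 to 2486. The count of lower genes was 1558 with 1 CPM added in place of 10 and 860 to 1147 under most other alternatives. It was 347 with each gene's top cell in each class left out, which removes 1 of 61 double-positive but 1 of 24 other hybrid cells. TMM and median-of-ratios scaling moved the median of all genes by -0.11 each on the log2 scale and gave 1481 higher and 1140 lower, and 1470 higher and 1147 lower. The basal score difference of -0.70 was -0.44 at a threshold of 400 CPM, -0.45 after subtraction of negative-well reads and -0.99 with lineage genes at 8-fold. The luminal score difference of 0.96 was 1.06 after that subtraction, 1.40 with 1 CPM added and 1.26 with lineage genes at 8-fold. Among values of 2-fold or more, directions turned for Csn2 (-2.57) and the milk and secretory median (-0.0311) at a threshold of 400 CPM. They turned for the median of wound and progenitor keratins without a filter on low values (0.0145), for Cd79a without its top cell in each class (0.0039) and for Alas2 without the haemoglobin-rich cell (0.34). Below 2-fold, 12 of 37 named genes and 4 of 19 list medians turned under at least 1 setting. They include Spp1 (-0.61) at 1.265 and Csn3 (-0.60) at 0.23 without the top cell in each class. They also include Esr1 (0.04) at -0.92 after the subtraction, and Dll1 (-0.57) at 0.21 at 100 CPM. The cause of these shifts was not tested. Depth limits genes detected in under 10 cells, where 1 well can set the sign. Thinning every cell and leaving out the haemoglobin-rich cell were added after seeing the data.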
